A study of Sus scrofa with 20 samples.

Results

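The genes described here encode the subunits of the proteasome and the ubiquitin-conjugating enzymes (UBE2), measured in pig heart. They were taken by symbol: each gene whose probe sets carry a single symbol that starts with PSMA to PSMG and a number, or with UBE2. This gave 64 genes, 40 of the proteasome and 24 UBE2 genes, out of 6765 genes with 1 symbol on the array. They are covered by 86 probe sets, and the probe set brightest on average over the 20 arrays stands for each gene. The proteasome genes comprise 7 alpha and 7 beta subunits of the constitutive core, 2 immunoproteasome subunits, 5 ATPases of the regulatory cap and 12 PSMD genes. The others are 4 activators, 1 inhibitor and 2 assembly chaperones of the core (PSMG). The PSMD genes were grouped with the cap by symbol and include PSMD10, a chaperone of cap assembly.

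The proteasome degrades proteins that have been tagged with ubiquitin. Its barrel-shaped core cuts proteins, and the regulatory cap recognises the tag, removes it and unfolds the substrate. Before that, an E1 enzyme activates ubiquitin, an E2 enzyme carries it, and an E3 ligase directs it to the substrate. Interferon-gamma is known to induce a variant, the immunoproteasome, in which the catalytic core subunits PSMB5, PSMB6 and PSMB7 are replaced by PSMB8, PSMB9 and PSMB10, along with the activator PA28 made of PSME1 and PSME2. In heart muscle this system turns over damaged and sarcomeric proteins.

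Gene expression was measured on Affymetrix porcine arrays, 1 array per female pig, in 4 groups of 5 animals. In RCS, low-flow ischemia (coronary stenosis) of 90 min was repeated 6 times every 12 h. In RCO, 2 cycles of 10 min coronary occlusion and 10 min reperfusion were repeated 6 times every 12 h per the series design, while the sample labels mention only 6 episodes of 10 min. In SWOP, that stimulus was given in 1 session, with 24 h of reperfusion before sampling, and control pigs were sham-operated. Neither the heart region nor the interval between the last RCO or RCS episode and sampling is stated in these sources. The 3 comparisons with control share the same 5 control arrays.

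Values are log2 signals as deposited, so that a difference of 1 is a 2-fold change, and each comparison stays within 1 probe set. In a limma fit of all 20 arrays, a gene passed when its p, adjusted by Benjamini-Hochberg over all 23999 tested probe sets, was under 0.05. Errors of differences are standard errors (SE), and the median SE over the 64 genes was 0.097. The genes were bright: their means over all arrays ran from 7.47 to 11.91 with a median of 10.23, 44 of 64 were among the brightest 2255 genes of the array, and 0 were below the 30th percentile of signal. The spread within a group was largest in RCO, with a median SD over the 64 genes of 0.14 in RCS, 0.20 in RCO, 0.094 in SWOP and 0.12 in control. The number of arrays limits the precision. The samples are bulk tissue, in which fewer cells of a type and less RNA per cell cannot be told apart.

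Some properties of the arrays moved with the groups. The 3′ minus 5′ signal of actin, a measure of RNA integrity and labelling, was 0.51 to 0.73 in RCS, 0.78 to 1.69 in RCO, 1.22 to 1.70 in SWOP and 1.24 to 1.96 in control. That of GAPDH was -0.06 to 0.19 in RCS, -0.23 to 0.08 in RCO, -0.17 to -0.01 in SWOP and -0.16 to -0.06 in control. The mean signal of the spike-in controls was 10.18 to 10.40 in RCS, below all other arrays, 10.48 to 11.05 in RCO, 10.43 to 10.87 in SWOP and 10.53 to 10.60 in control. The interquartile range of all probe sets was 3.27 to 3.44 in RCS, 3.05 to 3.32 in RCO, 3.26 to 3.30 in SWOP and 3.04 to 3.16 in control. The mean of 10 cardiomyocyte markers was 13.58 to 14.02 in RCS, 13.97 to 14.16 in RCO, 14.18 to 14.30 in SWOP and 14.23 to 14.30 in control. Among the RCO arrays, replicates 2 and 3 correlated best with an RCS array (r = 0.989 and 0.991) and replicate 1 with a SWOP array, at 0.985 the lowest such value of the 20 arrays. Counts for RCO are therefore also given without replicates 2 and 3, and for each array left out in turn. The part of these properties in the results was not tested.

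**Figure D1:**
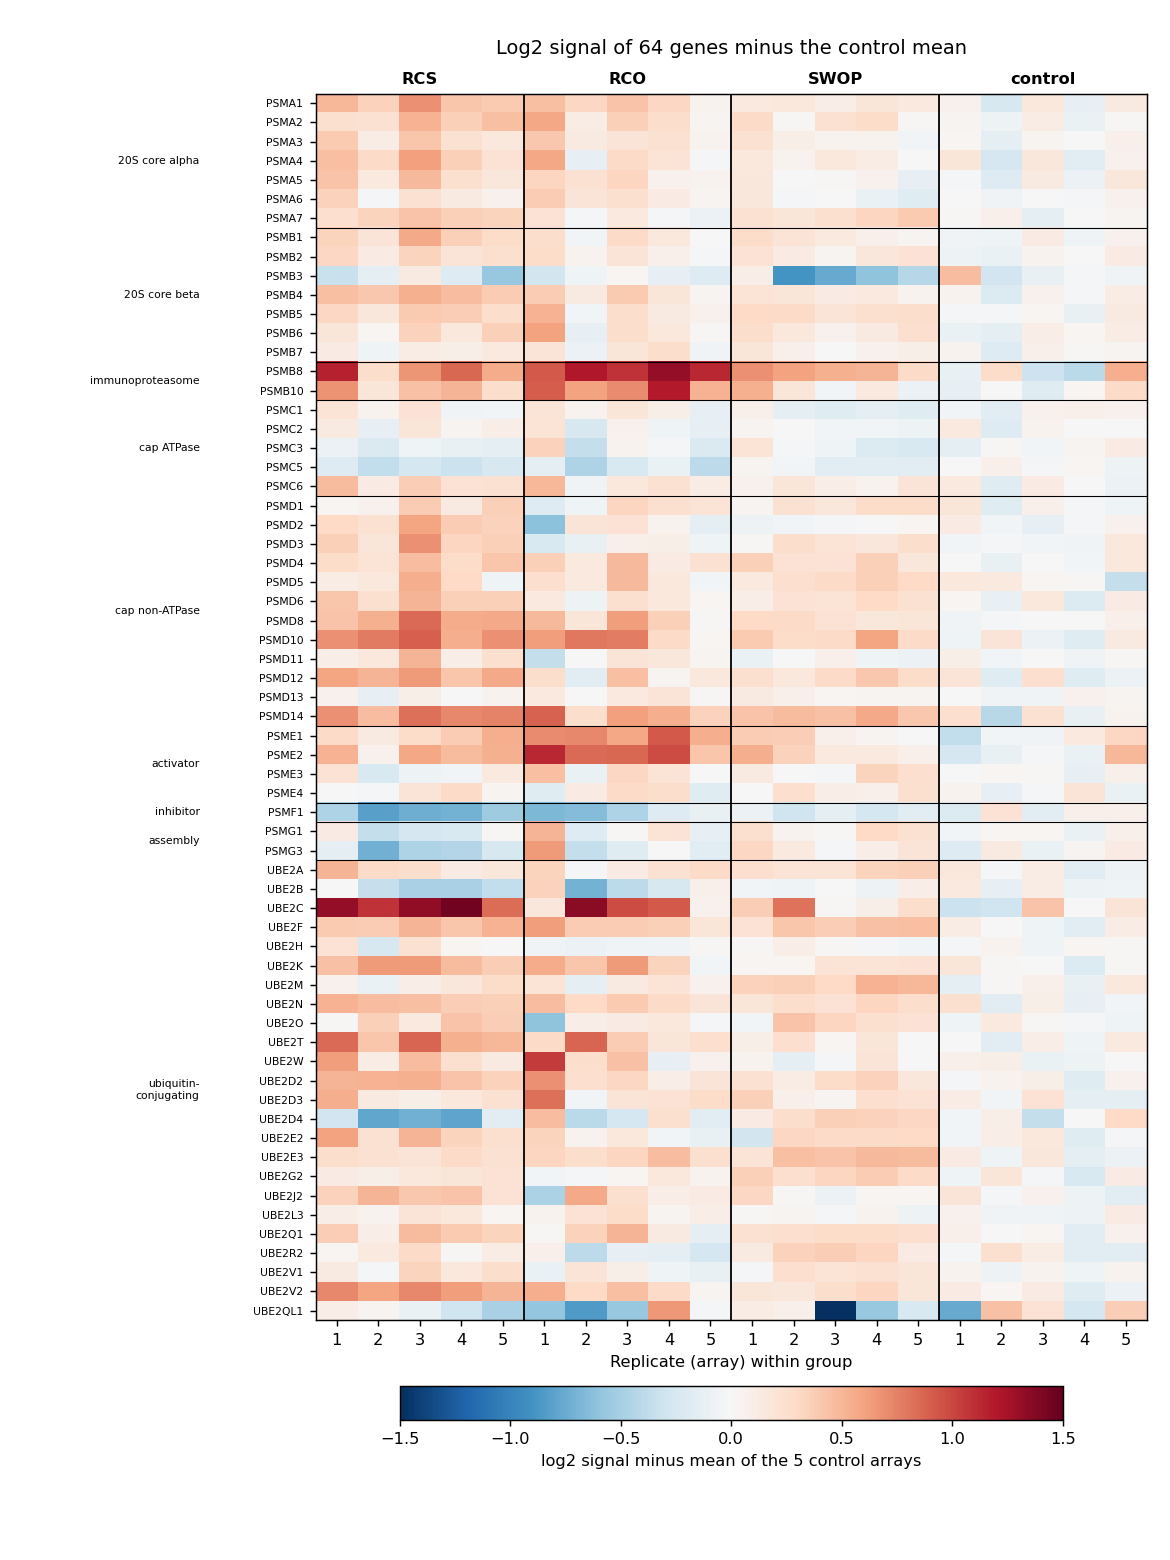
Log2 signal of each of the 64 genes (down the page, by role) on each of the 20 arrays (across, by group and replicate), minus the mean of the 5 control arrays; red is higher than that mean and blue lower. PSMB8 and PSMB10 are reddest in RCO, UBE2C in RCS, and PSMF1 is blue in all 5 RCS arrays.

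Against control, 35 of the 64 genes were higher and 4 lower in RCS, 17 higher and 2 lower in RCO, and 6 higher and 0 lower in SWOP. Among all 6765 genes, 28.8% were higher and 25.7% lower in RCS, 11.3% higher and 4.26% lower in RCO, and 4.66% higher and 3.5% lower in SWOP. Bright genes passed more often than others: among the brightest 2255 genes, 37.7% were higher in RCS, 16.9% in RCO and 8.07% in SWOP. The share of higher genes among the 64 was 54.7% in RCS, 26.6% in RCO and 9.38% in SWOP, so that in SWOP it lay near that of bright genes. The median difference of the 64 genes was 0.28 in RCS, 0.16 in RCO and 0.17 in SWOP. For the brightest genes it was 0.13 in RCS, 0.07 in RCO and 0.15 in SWOP. Of the other probe sets of called genes, 8 of 11 had the same call in RCS, 0 of 7 in RCO and 1 of 2 in SWOP. The sign was the same for 10 of 11 in RCS, 6 of 7 in RCO and 2 of 2 in SWOP. The count in RCO depended on single arrays, and the share of all probe sets called is given in brackets. It was 19 in all (10.7%), 14 without RCO replicate 1 (12.8%), 8 without RCO replicate 3 (5.51%) and 9 without control replicate 4 (7.65%). It was 10 without control replicate 2 (6.37%) and 7 without RCO replicates 2 and 3 (4.73%). The count in SWOP fell from 6 (7.15%) to 3 (2%) without control replicate 4.

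The immunoproteasome and PA28 genes were highest in RCO. PSMB9, the immunoproteasome subunit paired with PSMB6, was not analysed here because no probe set carries its symbol alone. PSMB8, the chymotrypsin-like catalytic subunit of the immunoproteasome, had log2 signals of 9.46, 8.56, 8.96, 9.16 and 8.86 in RCS, of 9.22, 9.50, 9.38, 9.62 and 9.43 in RCO, of 8.98, 8.90, 8.83, 8.81 and 8.59 in SWOP, and of 8.19, 8.58, 7.99, 7.90 and 8.84 in control. All 5 RCO arrays lay above every SWOP and control array, while RCS and SWOP each overlapped control, whose replicate 5 was high. PSMB8 was 2.19-fold higher in RCO than in control (log2 difference 1.13 ± 0.17, SE, n = 5 each, limma adjusted p = 0.000761). It was 1.62-fold higher in RCS than in control (0.70 ± 0.17, limma adjusted p = 0.00212), and its difference in SWOP, 0.52 ± 0.17, missed the threshold (limma adjusted p = 0.0585).

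PSMB10, the trypsin-like subunit that takes the place of PSMB7, had log2 signals of 8.98, 8.49, 8.75, 8.81 and 8.57 in RCS, of 9.22, 8.91, 9.02, 9.50 and 8.83 in RCO, of 8.84, 8.49, 8.26, 8.45 and 8.22 in SWOP, and of 8.18, 8.30, 8.12, 8.34 and 8.59 in control. Every RCO array was above every control array, and SWOP replicate 1 exceeded the lowest RCO array. PSMB10 was 1.73-fold higher in RCO than in control (0.79 ± 0.14, limma adjusted p = 0.00208) and 1.33-fold higher in RCS than in control (0.41 ± 0.14, limma adjusted p = 0.0177). The RCS call was lost under quantile normalization and without RCS replicate 1. In SWOP the difference was 0.15 ± 0.14 (limma adjusted p = 0.515).

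PSME1 and PSME2 form PA28, a ring that caps the core without the use of ATP and favours the release of peptides. PSME1 had log2 signals of 10.22, 10.07, 10.21, 10.32 and 10.48 in RCS, of 10.64, 10.65, 10.51, 10.85 and 10.48 in RCO, of 10.32, 10.30, 10.01, 9.97 and 9.93 in SWOP, and of 9.57, 9.89, 9.88, 10.08 and 10.25 in control. PSME2 had 10.38, 9.92, 10.43, 10.33 and 10.39 in RCS, 10.98, 10.70, 10.72, 10.83 and 10.27 in RCO, 10.40, 10.20, 10.00, 10.00 and 9.93 in SWOP, and 9.60, 9.74, 9.82, 9.76 and 10.35 in control. For PSME1 all RCO arrays were above all control arrays, and for PSME2 all but RCO replicate 5, which lay below control replicate 5. In RCO, PSME1 was 1.62-fold higher than in control (0.69 ± 0.12, limma adjusted p = 0.00193) and PSME2 1.80-fold higher (0.85 ± 0.14, limma adjusted p = 0.00197). In RCS, PSME1 differed from control by 0.33 ± 0.12 (limma adjusted p = 0.0281) and PSME2 by 0.44 ± 0.14 (limma adjusted p = 0.0186). The PSME1 call in RCS was lost without any 1 of control replicates 1, 2 and 3 or RCS replicates 4 and 5, that of PSME2 without control replicate 1, and both under quantile normalization. The other activators, nuclear PSME3 and PA200 (PSME4), did not pass in any of the 6 comparisons.

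These 4 genes were also set between the protocols. In RCO they were all higher than in SWOP: PSMB8 by 0.61 ± 0.17 (limma adjusted p = 0.0266), PSMB10 by 0.64 ± 0.14 (0.00854), PSME1 by 0.52 ± 0.12 (0.0116) and PSME2 by 0.59 ± 0.14 (0.0164). Only 4 of the 64 genes were higher in RCO than in SWOP, and they were these 4, while 4 others were lower; over all genes 5.54% were higher and 6.4% lower. The PSMB8 call between RCO and SWOP was lost without RCO replicate 4 or any 1 of SWOP replicates 2 to 5, and without RCO replicates 2 and 3 together, and that of PSME2 without SWOP replicate 5. RCS was lower than RCO for PSME1 (-0.37 ± 0.12, limma adjusted p = 0.0358), a call lost without RCO replicate 1 or 4 or any 1 of RCS replicates 1 to 4. The differences between RCS and RCO for PSMB8 (-0.43), PSMB10 (-0.38) and PSME2 (-0.41) missed the threshold, with limma adjusted p = 0.0716, 0.0576 and 0.0525. The RCO calls of all 4 genes against control held in each of the 20 alternative fits run for them, also without RCO replicates 2 and 3.

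**Figure D2:**
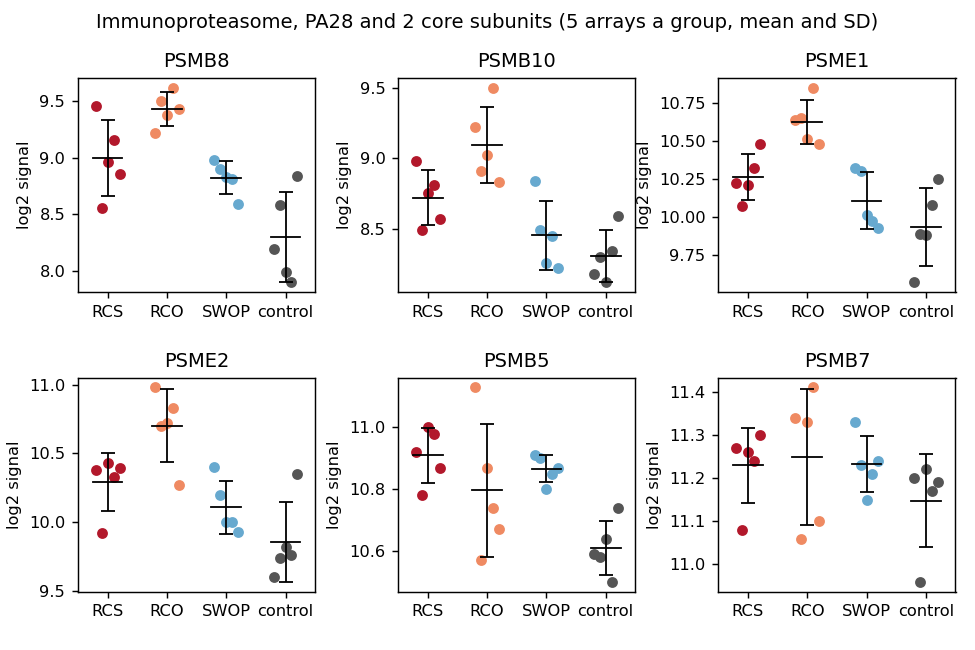
Log2 signal per array of PSMB8, PSMB10, PSME1 and PSME2 and of the constitutive core subunits PSMB5 and PSMB7, in RCS, RCO, SWOP and control; points are arrays, long bars the mean and whiskers the SD (n = 5). PSMB8, PSMB10, PSME1 and PSME2 are highest in RCO, whereas the PSMB7 arrays of all groups overlap.

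The constitutive partners of these subunits were read on the same arrays. PSMB5, the chymotrypsin-like subunit of the constitutive core, had log2 signals of 10.92, 10.78, 11.00, 10.98 and 10.87 in RCS, of 11.13, 10.57, 10.87, 10.74 and 10.67 in RCO, of 10.91, 10.90, 10.80, 10.85 and 10.87 in SWOP, and of 10.59, 10.58, 10.64, 10.50 and 10.74 in control. Its RCS and SWOP arrays were all above the control arrays, and RCO replicates 2, 4 and 5 did not exceed the highest control array. PSMB5 was higher in RCS than in control (0.30 ± 0.09, limma adjusted p = 0.00781), a call lost under quantile normalization, and did not pass in RCO (0.19) or SWOP (0.26). PSMB7, the trypsin-like one, did not pass in any comparison, with differences from control of 0.08 in RCS, 0.10 in RCO and 0.08 in SWOP.

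The difference between an immunoproteasome subunit and its constitutive partner was taken within each array and tested itself, for 2 pairs and 3 comparisons, with two-sided exact permutation tests adjusted over these 6. A value of this kind shows unequal change only. PSMB8 minus PSMB5 was -1.46, -2.22, -2.04, -1.82 and -2.01 in RCS, -1.91, -1.07, -1.49, -1.12 and -1.24 in RCO, -1.93, -2.00, -1.97, -2.04 and -2.28 in SWOP, and -2.40, -2.00, -2.65, -2.60 and -1.90 in control. All RCO arrays but replicate 1 were above all control arrays. The pair was 0.94 ± 0.22 (SE) higher in RCO than in control (exact permutation p = 0.0159, adjusted p = 0.0476), 0.40 ± 0.20 in RCS (adjusted exact p = 0.131) and 0.27 ± 0.17 in SWOP (adjusted exact p = 0.2). Without RCO replicate 2, 4 or 5, or without control replicate 1, 2, 3 or 4, the adjusted exact p of PSMB8 minus PSMB5 in RCO was 0.0635 to 0.0714, where 4 against 5 arrays were left.

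PSMB10 minus PSMB7 was -2.29, -2.59, -2.51, -2.43 and -2.73 in RCS, -2.12, -2.15, -2.31, -1.91 and -2.27 in RCO, -2.49, -2.74, -2.89, -2.76 and -3.02 in SWOP, and -3.02, -2.66, -3.10, -2.83 and -2.60 in control. Every RCO array was above every SWOP and control array. The pair was 0.69 ± 0.12 higher in RCO than in control, at the smallest p that 5 against 5 arrays allow (exact permutation p = 0.00794, adjusted p = 0.0476). It was 0.33 ± 0.12 higher in RCS than in control (exact permutation p = 0.0317, adjusted p = 0.0635), and 0.06 ± 0.13 in SWOP (adjusted exact p = 0.659). Without control replicate 5 the RCS value passed (0.39, adjusted exact p = 0.0476).

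**Figure D3:**
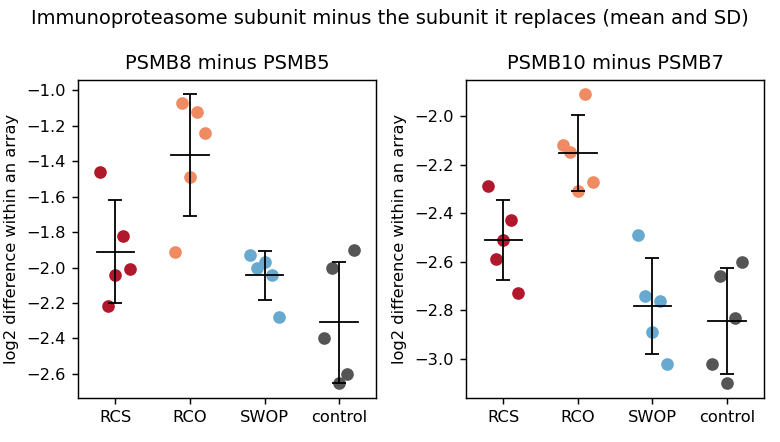
Log2 difference within an array between an immunoproteasome subunit and the constitutive subunit it replaces, PSMB8 minus PSMB5 (left) and PSMB10 minus PSMB7 (right), in RCS, RCO, SWOP and control; points are arrays, long bars the mean and whiskers the SD (n = 5). The RCO mean is -1.37 and -2.15, against -2.31 and -2.84 in control.

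Genes of the MHC class I pathway and the interferon-gamma response were looked at beside the immunoproteasome. In the RefSeq annotation of the pig assembly Sscrofa11.1, PSMB8 lies between TAP2 and TAP1, which encode the peptide transporter of antigen presentation, with PSMB9 next after TAP1. PSME2 and PSME1 are separated there by 1 gene, EMC9, and PSME2 adjoins IRF9, which encodes an interferon signalling factor. Of 18 listed genes 13 were measured, and 3 passed as higher in RCS, 5 in RCO and 0 in SWOP, where B2M, the light chain of MHC class I, fell by 0.49. Over all genes 28.8% were higher in RCS, 11.3% in RCO and 4.66% in SWOP. In RCO the genes that passed were the guanylate-binding proteins GBP1 (1.29 ± 0.28) and GBP2 (0.87 ± 0.24), the ubiquitin-like modifier UBD (1.23 ± 0.35) and the T cell chemokine CXCL9 (1.41 ± 0.43), and as the fifth, named after its value was seen, the transporter TAP1 (0.64 ± 0.20). Their limma adjusted p ran from 0.00690 to 0.0451. Tested directly, 0 of the 13 were higher and 4 lower in RCS than in RCO, where 11.7% and 9.9% of all genes were. The 4 were GBP1 (-0.98 ± 0.28), GBP2 (-1.20 ± 0.24), CXCL9 (-1.33 ± 0.43) and UBD (-1.83 ± 0.35). TAP1 did not pass there (-0.46 ± 0.20, limma adjusted p = 0.107). In RCO against SWOP, 1 of the 13 was higher and 0 lower, where 5.54% and 6.4% of all genes were. It was ISG15 (1.08 ± 0.33), and the 5 genes named for RCO did not pass there. In RCS the genes that passed against control were the peptide-loading factors TAPBP (0.48 ± 0.18) and PDIA3 (1.04 ± 0.19) and the transcription factor IRF8 (1.11 ± 0.23).

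The mean of these 13 genes was 8.93 to 9.57 in RCS, 9.32 to 9.81 in RCO, 9.03 to 9.31 in SWOP and 8.78 to 9.54 in control. Control replicate 5, which had the highest PSMB8, PSMB10, PSME1 and PSME2 signals of its group, also had the highest mean of this list in its group, at 9.54, against 8.78 to 8.92 on the other control arrays. Markers of immune cells were read on the same arrays. Control replicate 5 was the highest of its group for macrophage and monocyte markers too (8.09, others 7.49 to 7.84). The same held for T, NK and B cell markers (6.19, others 5.76 to 5.94). The mean of 12 macrophage and monocyte markers was 8.68 to 9.04 in RCS, 8.04 to 9.49 in RCO, 7.55 to 8.22 in SWOP and 7.49 to 8.09 in control, with 6 higher and 1 lower in RCS and 5 higher in RCO. On RCO replicates 1 to 5 the macrophage means were 8.04, 9.49, 8.92, 8.31 and 8.23. On the same arrays PSMB8 was 9.22, 9.50, 9.38, 9.62 and 9.43, and PSMB10 was 9.22, 8.91, 9.02, 9.50 and 8.83. The mean of 10 T, NK and B cell markers was 5.63 to 5.86 in RCS, 5.98 to 6.36 in RCO, 5.77 to 6.06 in SWOP and 5.76 to 6.19 in control. These markers lay at the 14.9th (CD79B) to 53.6th (PTPRC) percentile of signal. Against control 0 of the 10 passed in RCO, and 1 was higher and 3 lower in RCS. Tested directly, 0 were higher and 6 lower in RCS than in RCO, where 11.7% and 9.9% of all genes were. The mean of 3 neutrophil markers, all dim at the 15.7th to 23.3rd percentile of signal, was 4.58 to 4.85 in RCS and 4.59 to 6.01 in RCO. It was 4.47 to 4.77 in SWOP and 4.61 to 4.79 in control. RCO replicate 2 had 6.01 and the other RCO arrays at most 4.82. The part of these cells in the immunoproteasome values was not tested.

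Most genes of the constitutive core and cap were highest in RCS. Against control, 19 of 31 were higher and 1 lower in RCS, 5 higher and 1 lower in RCO, and 2 higher and 0 lower in SWOP. These are 61.3% higher in RCS, 16.1% in RCO and 6.45% in SWOP, beside 37.7% in RCS, 16.9% in RCO and 8.07% in SWOP for the brightest genes, so that the shares in RCO and SWOP lay near those of bright genes. Their median difference was 0.30 in RCS, 0.15 in RCO and 0.15 in SWOP. In SWOP the brightest genes had the same median, 0.15, and 79.5% of them were above control. The mean over the 31 genes, relative to control, was 0.16 to 0.43 on the RCS arrays, 0.00 to 0.27 on the RCO arrays, 0.08 to 0.17 on the SWOP arrays and -0.10 to 0.05 on the control arrays, so that the RCS and SWOP arrays lay above the control arrays and the RCO arrays overlapped them. The highest group mean was that of RCS for 22 of the 31 genes, against 35.8% of all genes and 42.4% of the brightest ones. All 5 RCS arrays were above all 5 control arrays for 29 of the 64 genes, and below them for 2, where 23.3% and 16.9% of all genes were. Differences were small: 8 of the 39 called genes reached 1.5-fold in RCS. On the same arrays the tissue markers moved: 8 of 10 cardiomyocyte markers were lower in RCS and 2 in RCO, and 4 of 6 fibroblast markers were higher in RCS and 2 in RCO. The mean of the fibroblast markers was 11.21 to 11.99 in RCS, 9.85 to 11.73 in RCO, 10.08 to 10.48 in SWOP and 9.34 to 10.52 in control. That of 5 smooth muscle markers was 10.72 to 11.25 in RCS, 10.19 to 10.97 in RCO, 10.10 to 10.69 in SWOP and 9.61 to 10.24 in control. Of these markers 4 were higher and 1 lower in RCS, 1 higher in RCO and 2 higher in SWOP. DES, the brightest of the 5 at the 99.5th percentile of signal, was among those higher in RCS and in SWOP. The part of these cells in the core and cap values was not tested.

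**Figure D4:**
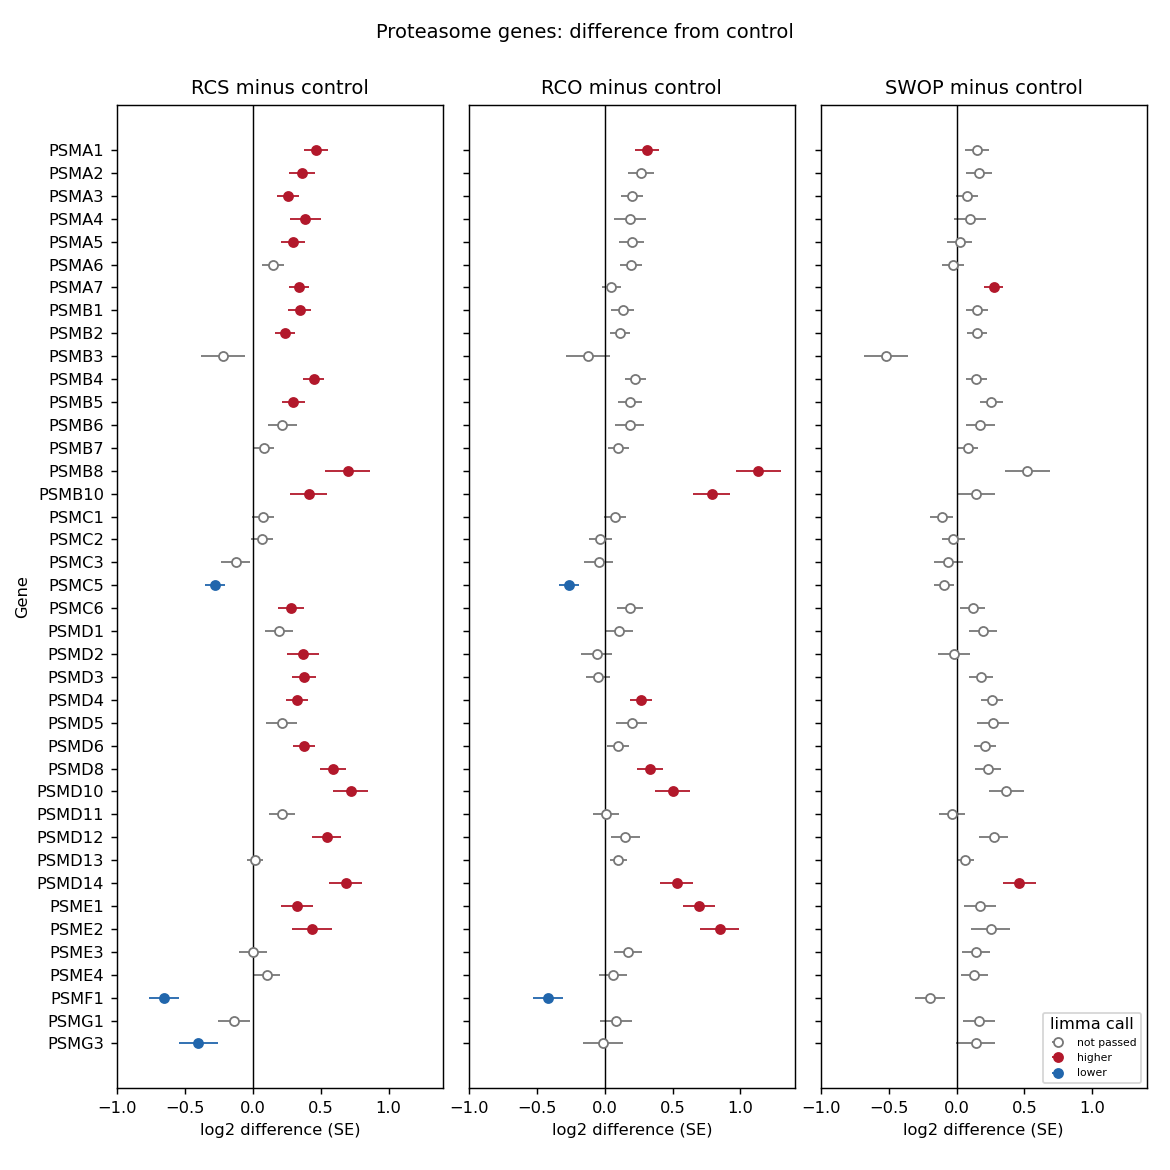
Log2 difference from control of the 40 proteasome genes in RCS (left), RCO (middle) and SWOP (right), with SE; filled points passed at a limma adjusted p below 0.05 (red higher, blue lower) and open ones did not. Most core and cap genes lie right of 0 in RCS, where 19 of 31 passed as higher, and PSMB8, PSMB10, PSME1 and PSME2 lie farthest right in RCO.

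The PSMD genes PSMD10, PSMD14, PSMD8 and PSMD12 had the largest differences of the core and cap genes in RCS. PSMD10 (gankyrin), a chaperone of cap assembly, had log2 signals of 8.60, 8.69, 8.81, 8.46 and 8.60 in RCS, of 8.54, 8.70, 8.68, 8.20 and 7.94 in RCO, of 8.31, 8.19, 8.20, 8.50 and 8.20 in SWOP, and of 7.85, 8.11, 7.82, 7.73 and 8.05 in control. All RCS and SWOP arrays were above all control arrays, and RCO replicate 5 was within the control range. PSMD10 was 1.65-fold higher in RCS than in control (0.72 ± 0.13, limma adjusted p = 0.000172) and 1.41-fold higher in RCO (0.50 ± 0.13, limma adjusted p = 0.0158), a call lost without RCO replicate 3. Its SWOP difference was 0.37 ± 0.13 (limma adjusted p = 0.0745).

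PSMD14, the enzyme of the cap that cuts ubiquitin chains off the substrate, had log2 signals of 10.91, 10.69, 11.06, 10.95 and 10.97 in RCS, of 11.11, 10.49, 10.85, 10.78 and 10.58 in RCO, of 10.66, 10.70, 10.67, 10.80 and 10.63 in SWOP, and of 10.48, 9.81, 10.46, 10.12 and 10.28 in control. It was above every control array on all 15 arrays of the other groups. PSMD14 passed in all 3 comparisons with control, at 0.69 ± 0.12 in RCS (1.61-fold, limma adjusted p = 0.000206), 0.53 ± 0.12 in RCO (limma adjusted p = 0.00998) and 0.46 ± 0.12 in SWOP (limma adjusted p = 0.0301). The SWOP call was lost without control replicate 2, 4 or 5 or any 1 of SWOP replicates 2 to 5. PSMD8 and PSMD12, structural subunits of the cap lid, were higher in RCS by 0.59 ± 0.10 (limma adjusted p = 8.64e-05) and 0.55 ± 0.11 (limma adjusted p = 0.000435). All their RCS arrays were above all their control arrays. In RCO, PSMD8 was higher by 0.33 ± 0.10 and PSMD12 differed by 0.15 ± 0.11; the PSMD8 call was lost without any 1 of control replicates 1 to 4 or RCO replicate 1, 3 or 4.

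Of the 12 PSMD genes, 8 (66.7%) were higher in RCS, where 37.7% of the brightest genes and 28.8% of all genes were. The other 4 (PSMD1, PSMD5, PSMD11 and PSMD13) had differences of 0.02 to 0.22 that did not pass. Those that passed include the ubiquitin receptor PSMD4 (0.33 ± 0.08), the scaffold PSMD2 of the cap base (0.37 ± 0.12) and the lid subunit PSMD3 (0.38 ± 0.09). The ATPases, which unfold the substrate and thread it into the core, gave another picture: of 5 measured, PSMC6 was higher in RCS (0.28 ± 0.09; lost without control replicate 2 or RCS replicate 1), PSMC5 was lower, and PSMC1, PSMC2 and PSMC3 had differences of -0.13 to 0.08. PSMC5 had log2 signals of 10.71, 10.54, 10.64, 10.58 and 10.66 in RCS, of 10.76, 10.44, 10.68, 10.81 and 10.51 in RCO, of 10.95, 10.86, 10.75, 10.74 and 10.75 in SWOP, and of 10.91, 10.98, 10.87, 10.93 and 10.83 in control. All RCS and RCO arrays were below all control arrays. PSMC5 fell by 0.28 ± 0.07 in RCS (limma adjusted p = 0.00511) and by 0.26 ± 0.07 in RCO (limma adjusted p = 0.0286). The RCS call held in every alternative run for it but the 1.5-fold limit, and the RCO call was lost without control replicate 1, 2 or 4 or RCO replicate 2 or 3.

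Of the 14 core subunits 10 (71.4%) were higher in RCS, where 37.7% of the brightest genes and 28.8% of all genes were. They were 6 of the 7 alpha subunits that form the outer rings and gate of the core and 4 of the 7 beta subunits of the inner rings. PSMA1 had log2 signals of 10.49, 10.33, 10.67, 10.40 and 10.38 in RCS, of 10.44, 10.30, 10.42, 10.30 and 10.04 in RCO, of 10.14, 10.15, 10.09, 10.17 and 10.14 in SWOP, and of 10.05, 9.75, 10.15, 9.87 and 10.12 in control. PSMB4, a beta subunit without catalytic activity, had 11.79, 11.74, 11.87, 11.80 and 11.72 in RCS, 11.71, 11.47, 11.73, 11.51 and 11.37 in RCO, 11.54, 11.52, 11.46, 11.48 and 11.39 in SWOP, and 11.39, 11.13, 11.40, 11.31 and 11.44 in control. For both genes all RCS arrays were above all SWOP and control arrays. The differences from control in RCS were 0.47 ± 0.09 for PSMA1 (limma adjusted p = 0.000418) and 0.45 ± 0.08 for PSMB4 (limma adjusted p = 0.000146). The alpha subunit PSMA7 was higher in both RCS (0.34 ± 0.07) and SWOP (0.27 ± 0.07, limma adjusted p = 0.0274), but not in RCO (0.05 ± 0.07), and RCS was above RCO by 0.29 ± 0.07 (limma adjusted p = 0.0105). Leaving out control replicate 4, SWOP replicate 4 or SWOP replicate 5 ended its call in SWOP. PSMB3, a beta subunit without catalytic activity, had the lowest SWOP difference of all 64 genes (-0.52 ± 0.16, limma adjusted p = 0.0581), which did not pass.

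The RCS count was smaller when the arrays were given the same distribution: quantile normalization left 21 of the 64 genes higher and 6 lower in RCS. These are 27 genes, a share near the 42.7% of all probe sets called in that fit. In the fit as reported the called share was 60.9% of the 64 genes, against 47.5% of all probe sets. PSMA3, PSMA5, PSMB2, PSMB5, PSMC6 and PSMD2 were among those that no longer passed. PSMA1, PSMA2, PSMA4, PSMA7, PSMB1, PSMB4, PSMD3, PSMD4, PSMD6, PSMD8, PSMD10, PSMD12 and PSMD14 passed in RCS in all alternatives run for them other than the 1.5-fold limit.

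Of the 31 core and cap genes, 6 were higher and 0 lower in RCS than in SWOP, and 6 higher and 0 lower in RCS than in RCO. Of all 64 genes, 10 were higher and 4 lower in RCS than in SWOP, where 20.3% and 17.7% of all genes were. In RCS against RCO, 8 were higher and 2 lower, where 11.7% and 9.9% were. Among the brightest genes, 24.2% were higher in RCS than in SWOP and 16.2% higher in RCS than in RCO. The counts of higher genes, for the 31 and the 64, were not above the bright-gene share against SWOP and lay near it against RCO. PSMD3 was 1.34-fold higher in RCS than in RCO (0.43 ± 0.09, limma adjusted p = 0.00464), with signals of 10.07, 9.90, 10.40, 10.04 and 10.07 in RCS, against 9.49, 9.61, 9.79, 9.81 and 9.65 in RCO. Every RCS array was above every RCO array, and this call held in all fits without a fold limit. PSMD2, a scaffold of the cap base, was 0.43 ± 0.12 higher in RCS than in RCO (limma adjusted p = 0.0186), a call lost without RCS replicate 3. The count for RCS against RCO was 3 without RCS replicate 3 and 22 without RCO replicates 2 and 3, where 8.55% and 37.7% of all probe sets were called. It was 6 without RCO replicate 4, RCS replicate 2 or RCS replicate 4, where 12.7%, 13.4% and 13% of all probe sets were called.

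The inhibitor PSMF1 (PI31), which binds the core and can block it in the test tube, moved the other way. It had log2 signals of 8.56, 8.21, 8.30, 8.32 and 8.49 in RCS, of 8.36, 8.38, 8.57, 8.83 and 8.92 in RCO, of 8.94, 8.73, 8.88, 8.76 and 8.86 in SWOP, and of 8.82, 9.25, 8.86, 9.11 and 9.10 in control. All RCS arrays were below all SWOP and control arrays. PSMF1 was 1.57-fold lower in RCS than in control (-0.65 ± 0.11, limma adjusted p = 0.00014), and its other probe set was lower too (-0.51 ± 0.09, limma adjusted p = 0.000161). In RCO it was lower by the probe set used (-0.42 ± 0.11, limma adjusted p = 0.0217), a call lost without RCO replicate 2 or 3 or control replicate 2 or 4. In SWOP the probe set used did not pass (-0.19 ± 0.11) while the other did (-0.35 ± 0.09, limma adjusted p = 0.0245).

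The core assembly chaperones PSMG1 and PSMG3, which help to build the core, did not follow the core subunits. PSMG3 had log2 signals of 8.10, 7.51, 7.77, 7.79 and 7.99 in RCS, of 8.87, 7.88, 8.05, 8.23 and 8.08 in RCO, of 8.54, 8.38, 8.20, 8.33 and 8.43 in SWOP, and of 8.04, 8.37, 8.13, 8.27 and 8.36 in control. All RCS arrays were below all SWOP arrays, and RCS replicate 1 was within the control range. PSMG3 was lower in RCS than in SWOP (-0.54 ± 0.14, limma adjusted p = 0.00768) and lower than in control (-0.40 ± 0.14, limma adjusted p = 0.0283), the call against control lost without control replicate 2, 4 or 5 or RCS replicate 2, 3 or 4. PSMG1 differed from control by -0.14 ± 0.12 in RCS and did not pass in any comparison.

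Of the 24 UBE2 genes, 12 were higher and 1 lower in RCS, 8 higher and 0 lower in RCO, and 4 higher and 0 lower in SWOP. The shares of higher UBE2 genes were 50% in RCS, 33.3% in RCO and 16.7% in SWOP, beside 37.7% in RCS, 16.9% in RCO and 8.07% in SWOP for the brightest genes, and 28.8% in RCS, 11.3% in RCO and 4.66% in SWOP for all genes. Their median difference was 0.27 in RCS, 0.15 in RCO and 0.22 in SWOP, and that of the brightest genes 0.13 in RCS, 0.07 in RCO and 0.15 in SWOP. UBE2C had the largest difference of all 64 genes in RCS. It works with the anaphase-promoting complex, which marks cyclins for degradation in dividing cells. UBE2C had log2 signals of 8.83, 8.60, 8.84, 8.96 and 8.35 in RCS, of 7.68, 8.87, 8.49, 8.43 and 7.58 in RCO, of 7.88, 8.33, 7.53, 7.60 and 7.77 in SWOP, and of 7.19, 7.21, 7.94, 7.52 and 7.70 in control. All RCS arrays were above all SWOP and control arrays, and the RCO arrays were split, with replicates 2, 3 and 4 high and 1 and 5 in the control range. UBE2C was 2.30-fold higher in RCS than in control (1.20 ± 0.22, limma adjusted p = 0.000248) and 1.62-fold higher in RCO (0.70 ± 0.22, limma adjusted p = 0.0461), the RCO call lost without control replicate 1, 2, 4 or 5 or RCO replicate 2, 3 or 4. Its other probe set, dim at the 16.7th percentile of signal, differed by -0.14 ± 0.13 in RCS and did not pass.

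Of 11 measured markers of dividing cells, 9 were higher in RCS, 5 in RCO and 1 in SWOP. Their mean was 7.50 to 7.93 in RCS, 6.89 to 7.23 in SWOP and 6.68 to 7.09 in control. In RCO it was 7.16, 8.0, 7.78, 7.60 and 7.0, so that the RCO arrays with high UBE2C were those with high markers of dividing cells. The same RCO arrays also had the highest RCO means of the macrophage, fibroblast and smooth muscle markers. For the fibroblast markers the 5 RCO means were 9.85, 11.73, 11.68, 10.77 and 10.55. UBE2T, the enzyme of the Fanconi anaemia DNA repair pathway, had log2 signals of 8.04, 7.60, 8.06, 7.72 and 7.68 in RCS, of 7.47, 8.06, 7.57, 7.37 and 7.44 in RCO, of 7.27, 7.44, 7.21, 7.37 and 7.19 in SWOP, and of 7.18, 7.02, 7.28, 7.12 and 7.33 in control. All RCS and RCO arrays were above all control arrays, and RCO replicate 2 was far above the others of its group. UBE2T was 1.55-fold higher in RCS than in control (0.63 ± 0.12, limma adjusted p = 0.000329), though its other probe set differed by only 0.19 ± 0.10 and did not pass. Its RCO difference was 0.40 ± 0.12 (limma adjusted p = 0.0386), a call lost without RCO replicate 2 or 3 or control replicate 1, 2 or 4. The part of dividing or other cells in the UBE2C and UBE2T values was not tested.

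**Figure D5:**
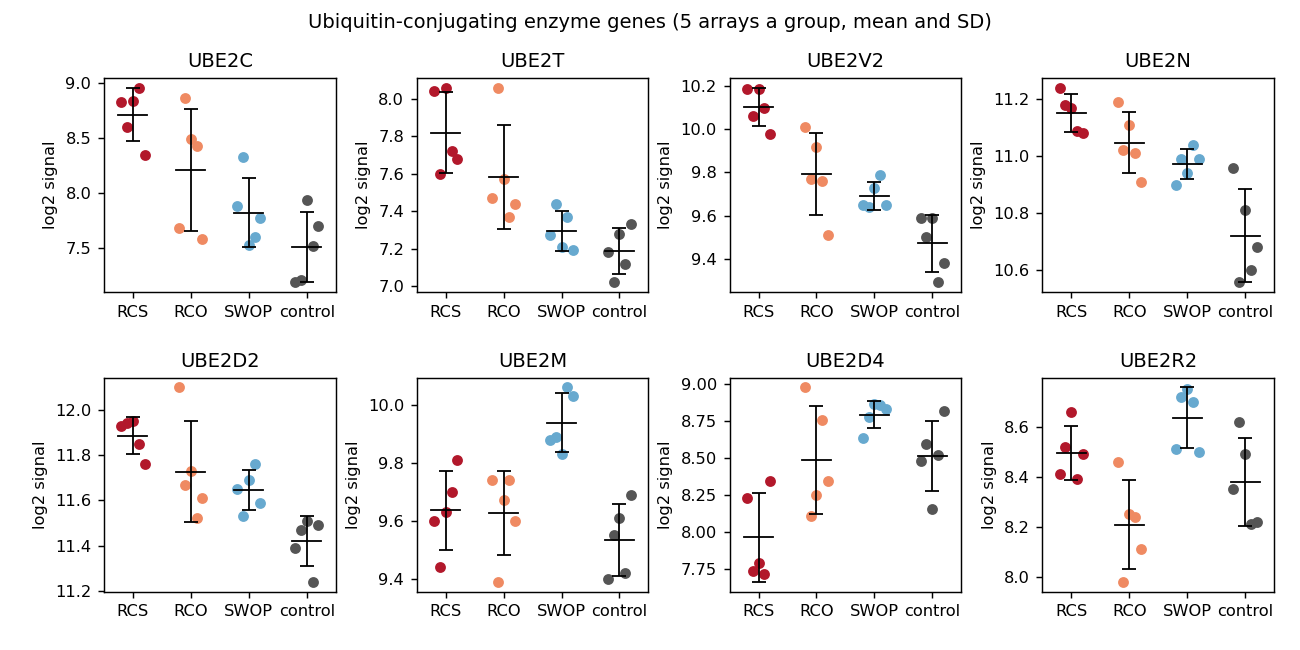
Log2 signal per array of 8 ubiquitin-conjugating enzyme genes in RCS, RCO, SWOP and control; points are arrays, long bars the mean and whiskers the SD (n = 5). UBE2C, UBE2T, UBE2V2, UBE2N and UBE2D2 are highest in RCS, UBE2M and UBE2R2 in SWOP, and UBE2D4 is lowest in RCS.

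UBE2N and UBE2V2 act as a pair that builds ubiquitin chains linked through lysine 63, which serve in DNA repair and signalling. UBE2V2 had log2 signals of 10.19, 10.06, 10.19, 10.10 and 9.98 in RCS, of 10.01, 9.77, 9.92, 9.76 and 9.51 in RCO, of 9.65, 9.64, 9.73, 9.79 and 9.65 in SWOP, and of 9.59, 9.50, 9.59, 9.29 and 9.38 in control. UBE2N had 11.24, 11.18, 11.17, 11.09 and 11.08 in RCS, 11.19, 11.02, 11.11, 11.01 and 10.91 in RCO, 10.90, 10.99, 10.94, 11.04 and 10.99 in SWOP, and 10.96, 10.56, 10.81, 10.60 and 10.68 in control. Every RCS array was above every SWOP and control array for both genes. UBE2V2 was 1.55-fold higher in RCS than in control (0.63 ± 0.09), with the smallest adjusted p of the 64 genes (limma adjusted p = 1.72e-05), and UBE2N 1.35-fold higher (0.43 ± 0.08, limma adjusted p = 0.000204). In RCO the differences were 0.32 ± 0.09 for UBE2V2 (limma adjusted p = 0.0217) and 0.33 ± 0.08 for UBE2N (limma adjusted p = 0.0112), and both were lost without RCO replicates 2 and 3. The UBE2V2 call in RCO was also lost without control replicate 4 or 5 or RCO replicate 3 alone. UBE2V1, the other partner of UBE2N, did not pass in any comparison.

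Other enzymes that passed in RCS include UBE2K, which builds chains linked through lysine 48 (0.51 ± 0.11), and UBE2D2, a partner of many ligases (0.47 ± 0.09). The 3 probe sets of UBE2D2 all passed in RCS. UBE2D4, of the same subfamily, was the only UBE2 gene lower in RCS. It had log2 signals of 8.23, 7.74, 7.79, 7.72 and 8.35 in RCS, of 8.98, 8.11, 8.25, 8.76 and 8.35 in RCO, of 8.64, 8.78, 8.87, 8.86 and 8.83 in SWOP, and of 8.48, 8.60, 8.16, 8.52 and 8.82 in control. RCS replicates 2, 3 and 4 were below all other arrays. UBE2D4 was 1.46-fold lower in RCS than in control (-0.55 ± 0.16, limma adjusted p = 0.0084) and 1.78-fold lower than in SWOP (-0.83 ± 0.16, limma adjusted p = 0.000666), and in both comparisons all 3 of its probe sets passed.

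The enzymes UBE2F and UBE2M carry NEDD8, a ubiquitin-like protein that switches on cullin ligases. UBE2F was higher in all 3 comparisons with control, by 0.45 ± 0.08 in RCS, 0.39 ± 0.08 in RCO and 0.38 ± 0.08 in SWOP, with limma adjusted p = 0.000208, 0.00483 and 0.0125. Each of its 15 arrays outside control was above all control arrays. UBE2M had log2 signals of 9.60, 9.44, 9.63, 9.70 and 9.81 in RCS, of 9.74, 9.39, 9.67, 9.74 and 9.60 in RCO, of 9.88, 9.89, 9.83, 10.06 and 10.03 in SWOP, and of 9.40, 9.55, 9.61, 9.42 and 9.69 in control. Only SWOP stood above control: the difference was 0.40 ± 0.09 in SWOP (limma adjusted p = 0.0133), 0.10 ± 0.09 in RCS and 0.09 ± 0.09 in RCO. Tested directly, UBE2M was lower than in SWOP in RCS (-0.30 ± 0.09, limma adjusted p = 0.0119) and in RCO (-0.31 ± 0.09, limma adjusted p = 0.0289), the RCO call lost without RCO replicate 2 or SWOP replicate 2, 4 or 5.

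Further UBE2 genes were highest in SWOP. UBE2G2, which serves the degradation of proteins of the endoplasmic reticulum, was 0.32 ± 0.07 higher in SWOP than in control (limma adjusted p = 0.016), a call lost without control replicate 4, and lower in RCO than in SWOP (-0.29 ± 0.07, limma adjusted p = 0.0191). UBE2R2, an enzyme of cullin ligases, had log2 signals of 8.46, 7.98, 8.25, 8.24 and 8.11 in RCO, against 8.51, 8.72, 8.75, 8.70 and 8.50 in SWOP. All RCO arrays were below all SWOP arrays (-0.43 ± 0.10, limma adjusted p = 0.0117). UBE2E3 was higher in each group than in control, by 0.24 ± 0.07 in RCS, 0.32 ± 0.07 in RCO and 0.41 ± 0.07 in SWOP, with limma adjusted p = 0.0125, 0.0104 and 0.00881. Its probe set has a name that marks possible matches to several transcripts, and of its other 2 probe sets 1 passed in RCS, 0 in RCO and 1 in SWOP. With the mean of its 3 probe sets the UBE2E3 calls in RCS and RCO were lost. Quantile normalization ended its call in RCS, and the fit of only RCO and control that in RCO. In SWOP, the UBE2F, UBE2M and UBE2G2 calls were lost under quantile normalization and that of UBE2E3 was not.

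Of the remaining UBE2 genes, UBE2A, UBE2E2, UBE2J2 and UBE2Q1 were higher in RCS by 0.27 to 0.39, and all 4 calls were lost under quantile normalization. That of UBE2A was also lost without RCS replicate 1, and that of UBE2J2 without control replicate 5 or RCS replicate 2. UBE2B, the close relative of UBE2A, differed by -0.34 ± 0.14 in RCS (limma adjusted p = 0.0547). UBE2H, UBE2L3, UBE2O, UBE2W, UBE2D3 and UBE2QL1 did not pass in any comparison. UBE2QL1 had the largest error of all, with an SE of 0.31 and signals of 6.25 to 7.97 in SWOP, against 7.10 to 8.29 in control.

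Genes that act around the proteasome were read from lists chosen by function. Beside their counts, 28.8% of all genes were higher and 25.7% lower in RCS. In RCO 11.3% were higher and 4.26% lower, and in SWOP 4.66% and 3.5%. Of 6 ubiquitin and E1 genes 3 were higher in RCS, the SUMO-activating subunits SAE1 (0.52 ± 0.08, limma adjusted p = 4.11e-05) and UBA2 (0.17 ± 0.06) and the ubiquitin fusion gene RPS27A (0.18 ± 0.06), and 0 passed in RCO or SWOP. Of 6 genes for maturation and associated proteins, 2 were higher and 1 lower in RCS, 1 higher and 1 lower in RCO, and 1 lower in SWOP. ZFAND5, a zinc finger protein that stimulates the proteasome, fell in all 3 groups, by 0.50 ± 0.11 in RCS, 0.47 ± 0.11 in RCO and 0.44 ± 0.11 in SWOP. Its relative ZFAND2A, induced by arsenite, was higher by 0.45 ± 0.16 in RCS and 0.84 ± 0.16 in RCO (limma adjusted p = 0.0274 and 0.00318), and AKIRIN2, a nuclear import factor of the proteasome, by 0.33 ± 0.08 in RCS.

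Of 6 genes for p97 and its shuttle factors, VCP, which encodes p97, was higher in RCS (0.34 ± 0.11, limma adjusted p = 0.0147), and 0 passed in RCO or SWOP. Of 13 ubiquitin ligase genes, 1 was higher and 3 lower in RCS, 0 passed in RCO, and 1 was higher in SWOP. They were ITCH (0.20 ± 0.08) on the one side and the muscle ligase TRIM55 (-0.56 ± 0.14), the cullin CUL1 (-0.25 ± 0.07) and the dim SKP2 (-0.21 ± 0.08) on the other in RCS, and the co-chaperone ligase STUB1 in SWOP (0.36 ± 0.10). Of the factors that drive proteasome gene transcription 2 were measured, and 1 of them, NFYC, was lower in RCO (-0.31 ± 0.10, limma adjusted p = 0.0431). NFE2L1, the main inducer of proteasome genes in mouse and human cells, was not analysed here.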

How the data were processed

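Arrays of 20 pig hearts (total RNA, Trizol, 1 colour) were used. The authors deposited log2 values per probe set; RMA and MAS5 were used per the submitters' processing notes, with no version and no statement of which step each served. Base 2 was inferred from the size of the values, since no source names it. Depth has no meaning here; the number of arrays sets the precision.

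Gene symbols came from the platform's probe table, and 63 of the 64 genes matched a RefSeq gene ID of the same symbol (Sscrofa11.1). After 124 control spots were left out, 4 group means were fitted to 23999 probe sets in limma 3.58.1 (lmFit, then eBayes; R 4.3.3; 16 residual degrees of freedom), tested on simulated data first. The 6 differences between groups were tested, with Benjamini-Hochberg adjustment within each. No value was imputed or dropped. Figures used matplotlib 3.10.9. Any of the 64 genes could be named, and of each further list up to 4 genes of smallest p that passed. The genes and lists were chosen with earlier results of these data known.

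Replicate numbers come from the sample titles, which state no pairing of animals. Deviations from group means correlated with a median of 0.073 (-0.18 to 0.44) in 30 pairs of arrays of equal number. In 120 pairs of unequal number the median was -0.004 (-0.47 to 0.46). Of these, 10 of the 30 and 19 of the 120 were over 0.1. Whether arrays of equal number share an effect was not tested. No 2 arrays held equal values. Whether pigs of a group shared a litter or day is not given. Alternatives were quantile normalization, median centring, leaving out dim probe sets, an intensity trend, array weights, a replicate block, a 1.5-fold limit, only the 2 groups compared, averaging a gene's probe sets, and each array left out; fits without RCO replicates 2 and 3 and without the 2 arrays of highest spike-in signal were added after the data had been seen.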

Additional observations from a re-analysis of the deposited data

Results flagged for a closer look

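Of 256 sets of 5 arrays (64 genes in 4 groups), 11 held an array that stood apart from the other 4 by Dixon's limit for 5 values, and chance gives about 1 in 20 such sets. SWOP replicate 1 held 4 of them: PSMC1 at 10.63, with the next array at 10.42, was high, and UBE2E2 at 7.85 (next 8.41), UBE2E3 at 10.55 (next 10.78) and UBE2V1 at 10.38 (next 10.58) were low. This array and RCO replicate 1 had the highest spike-in means, 10.87 and 11.05, against 10.18 to 10.60 on the other 18. In RCO, UBE2O was low on replicate 1 at 7.68 (next 8.27), and UBE2T was high on replicate 2 at 8.06 (next 7.57). RCS replicate 2 was low for PSMB7 at 11.08 (next 11.24) and for PSME2 at 9.92 (next 10.33). In control, PSMB7 was low on replicate 2 at 10.96 (next 11.17), while replicate 5 was high for PSMD3 at 9.88 (next 9.69) and low for PSMD5 at 8.53 (next 8.90). The cause of these values was not tested.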

How the results depend on the processing

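Counts are of the 64 genes called in either direction. Percentages in brackets are shares of all tested probe sets called in the same fit. The fit as reported gave 39 in RCS (47.5%), 19 in RCO (10.7%) and 6 in SWOP (7.15%) against control. It gave 14 in RCS against SWOP (29.1%), 10 in RCS against RCO (19.1%) and 8 in RCO against SWOP (10.1%). Quantile normalization gave 27 in RCS (42.7%) and 1 in SWOP (3.99%) against control. Array weights gave 23 in SWOP against control (23.8%) and 31 in RCS against SWOP (42.6%). A limit of 1.5-fold gave 8 in RCS (15.4%), 5 in RCO (3.94%) and 0 in SWOP (1.06%) against control. That limit gave 2 in RCS against SWOP (12.4%), 0 in RCS against RCO (4.47%) and 3 in RCO against SWOP (3.22%). A fit of only the 2 groups compared, which uses fewer samples, gave 4 in RCO (2.35%) and 13 in SWOP (17%) against control. Such fits gave 25 in RCS against SWOP (36%), 1 in RCS against RCO (3.88%) and 5 in RCO against SWOP (3.6%). Without RCO replicates 2 and 3 the counts were 7 in RCO against control (4.73%), 22 in RCS against RCO (37.7%) and 4 in RCO against SWOP (6.76%). Without the 2 arrays of highest spike-in signal they were 24 in RCS against SWOP (29.8%) and 11 in SWOP against control (10.7%). With each array left out in turn the ranges against control were 37 to 38 in RCS (39.3 to 47.6%), 8 to 21 in RCO (5.51 to 17.7%) and 3 to 8 in SWOP (2 to 8.43%). They were 11 to 18 in RCS against SWOP (22.6 to 29.7%), 3 to 14 in RCS against RCO (8.55 to 31%) and 4 to 9 in RCO against SWOP (4.19 to 12.5%). With the replicate number as a block, a pairing the labels do not state, there were 42 in RCS (49.2%), 20 in RCO (12.8%) and 9 in SWOP (8.83%) against control. The block gave 19 in RCS against SWOP (31%), 14 in RCS against RCO (22%) and 8 in RCO against SWOP (11.9%).

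The only core and cap gene called between RCO and SWOP was PSMA7, lower in RCO. Under quantile normalization 1 gene was higher instead, with the replicate block 1, and without SWOP replicate 1 the number was 2. Without RCO replicate 5, 1 UBE2 gene was called between RCS and RCO, and it was lower in RCS. The RCO value of PSMB8 minus PSMB5 was 0.86 to 1.08 with 1 array left out, and the RCS value of PSMB10 minus PSMB7 was 0.27 to 0.39. The cause of these changes was not tested. Of the calls against control, 24 of 39 in RCS, 4 of 19 in RCO and 1 of 6 in SWOP were kept in all alternatives other than the 1.5-fold limit, and 0 changed direction.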
